A study of Mus musculus with 14 samples.

Results

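Trim63, Trim54, Trim55, Fbxo32, Foxo1, Foxo3 and Foxo4, the genes of muscle ubiquitin ligases and of the FoxO transcription factors, were followed by their symbols through differentiation of C2C12 cells with and without knockdown of Klf5. They are 7 of the 24016 genes in the deposited expression table, and all 7 were among the 14312 called expressed, with a mean level of at least 1 over the 8 RNA libraries.

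C2C12 is a line of mouse myoblasts, muscle precursor cells that leave the cell cycle and fuse into multinucleated myotubes when serum is lowered. The cells of this 1 line were transfected with a control siRNA (siCtrl) or with a pool of siRNAs against Klf5 (siKlf5), a Krüppel-like transcription factor. Poly(A) RNA was sequenced before differentiation (day 0) and on days 1, 2 and 3 in differentiation medium. Each siRNA and day is 1 library. A difference within 1 day therefore has no replicate check and no p-value, and the 95% intervals of such differences cover counting error only.

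Ubiquitin ligases tag proteins for destruction by the proteasome. MuRF1 (Trim63), MuRF2 (Trim55) and MuRF3 (Trim54) are closely related RING-finger ligases of the sarcomere, and atrogin-1 (Fbxo32) is the F-box subunit that brings substrates to an SCF ligase complex. FoxO factors turn on genes of atrophy, autophagy and fuel use, Trim63 and Fbxo32 among them, and are held in the cytoplasm when insulin or IGF signalling activates Akt.

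Levels are deposited FPKM, reads per kilobase of exon with each library scaled to a total of 10000000, so they can be compared between genes and libraries here but not with FPKM scaled in other ways. The depth recovered from these values was between 7850497 reads (siCtrl, day 1) and 20301506 reads (siCtrl, day 2), and on day 2 the siCtrl library was 1.72 times as deep as the siKlf5 library. Klf5, the target of the siRNA, was at 224, 381, 614 and 933 in siCtrl on days 0 to 3 and at 35.1, 159.6, 192 and 211 in siKlf5. All 8 of the myotube markers checked were expressed, and their summed level went from 1517 on day 0 to 18721 on day 3 in siCtrl and from 1201 to 17852 in siKlf5. The summed level of 8 cell cycle markers went from 3484 to 939.6 in siCtrl and from 3756 to 1246 in siKlf5. Markers of other cell types were low, with sums of at most 53.6 for 6 adipocyte, 26.0 for 5 immune, 7.0 for 5 endothelial and 34.8 for 4 osteoblast genes, and Plin1 and Ibsp were at 0 in all 8 libraries.

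Trim63 had by far the widest course of the 7 genes. The transcript lies at chr4:133871035-133885544 on the plus strand of mm9 and has 1875 exonic bases. Its level in siCtrl was 2.17, 69.9, 323 and 329.6 on days 0, 1, 2 and 3. In siKlf5 its level was 3.88, 84.8, 191 and 259.9. Trim63 was thus close to the floor of the assay in myoblasts, with 8 reads in siCtrl and 13 in siKlf5 on day 0, and well above it in every library from day 1 on. From day 0 to day 3 the log2 change was 7.18 (interval 5.03 to 11.4), or 145-fold, in siCtrl and 6.03 (4.25 to 8.95), or 65.4-fold, in siKlf5. The control level was on its plateau by day 2, since the log2 change from day 2 to day 3 was 0.03 (-0.22 to 0.28), while in siKlf5 it was 0.44 (0.08 to 0.81). In cultures taken whole, fewer cells of a type and less RNA per cell cannot be told apart.

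**Figure D1:**
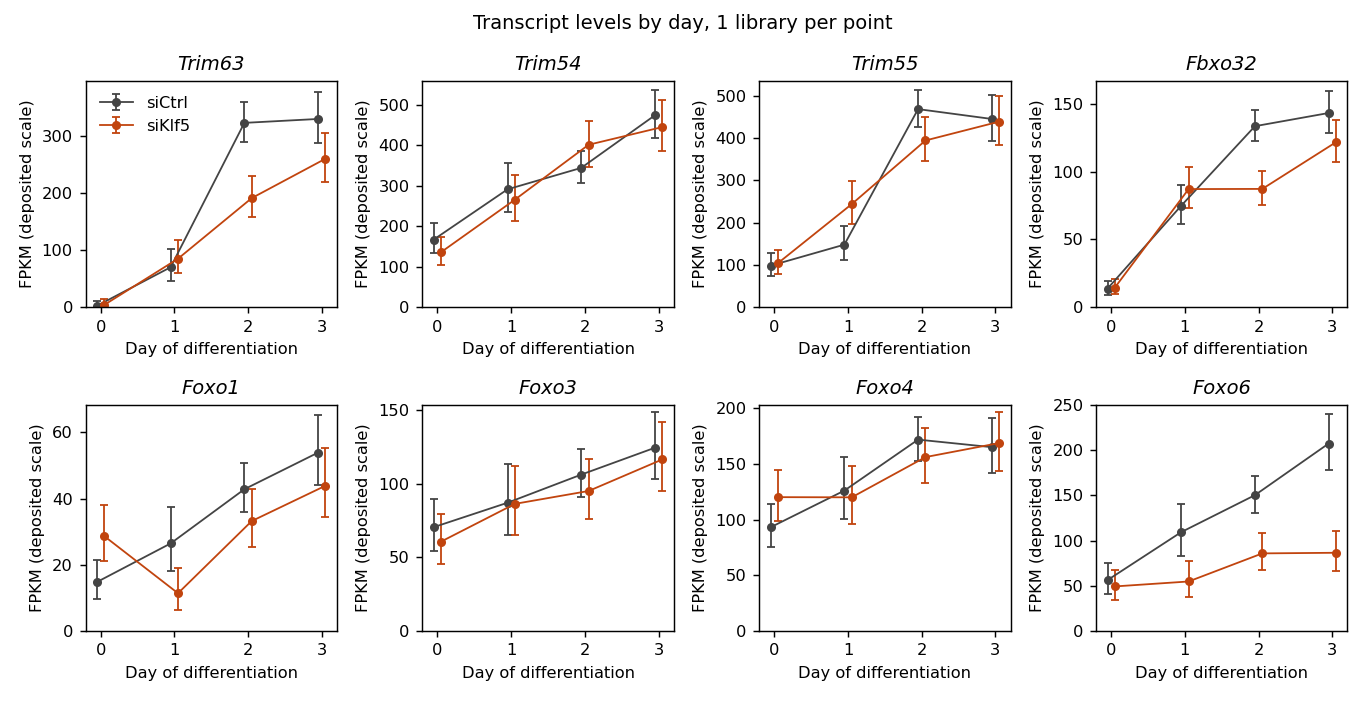
Level of each gene on the deposited FPKM scale (vertical axes, each starting at 0) against the day of differentiation, for siCtrl (grey) and siKlf5 (orange). Each point is 1 library and bars are 95% counting intervals on reads taken in units of 6. Trim63 climbs from 2.17 to 329.6 in siCtrl, Foxo1 in siKlf5 dips to 11.4 on day 1, and Foxo6, the remaining FoxO gene, reaches 208 in siCtrl and 86.5 in siKlf5.

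The knockdown difference in Trim63 was seen on day 2. With siKlf5 the level was 191 against 323 with siCtrl, a log2 ratio of -0.76 (-1.07 to -0.45), and on day 3 the ratio was -0.34 (-0.66 to -0.03). Upper-quartile scaling raises the ratios of day 3 by 0.034, so that this day 3 interval reaches past 0. Median-ratio scaling raises them by 0.003. On day 1 the Trim63 ratio was 0.28 (-0.48 to 1.05), and on day 0 it was 0.81 with an interval from -3.06 to 5.61, which 8 and 13 reads cannot resolve. Day 2 is also where the depths of the paired libraries differed most. Expressed transcripts within 1.5 times the length and 2 times the level of Trim63 stood at a median of -0.01 (log2) on day 2. On that day the summed myotube markers stood at 13877 in siCtrl and 17219 in siKlf5. Myog among them, which was lower with siKlf5 on all 4 days, was at 2061 in siCtrl and 1739.6 in siKlf5 (log2 ratio -0.24, -0.37 to -0.12). On days 0, 1 and 3 the Myog ratio was -0.55, -0.32 and -0.73 (-0.87 to -0.58). The day 3 ratios of the 8 markers ran from -0.73 to 0.14, with a median of -0.001. The part of differentiation in the Trim63 difference was not tested.

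Trim54, the gene of MuRF3, a ligase that also binds microtubules, was already high in myoblasts. It lies at chr5:31418985-31439999 on the plus strand, with 1521 exonic bases, and overlaps the microRNA gene Mir6369 on the opposite strand. Because both strands were counted, reads of that overlap cannot be told apart. The Trim54 level in siCtrl was 167, 291, 344 and 474 on days 0 to 3, and in siKlf5 it was 136, 266, 401 and 445. The day 0 libraries were the lowest of each arm and day 3 the highest. Its log2 change from day 0 to day 3 was 1.5 (1.14 to 1.88) in siCtrl and 1.71 (1.29 to 2.15) in siKlf5. Between the siRNAs the log2 ratio was -0.30, -0.13, 0.22 and -0.09 on days 0 to 3, and each interval included 0. The widest of them ran from -0.80 to 0.20 on day 0, which leaves room for a 1.5-fold difference within counting error on that day.

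Trim55, the gene of MuRF2, lies at chr3:19544460-19591599 on the plus strand with 1776 exonic bases. The level of Trim55 in siCtrl was 98.2, 148, 469 and 446 on days 0 to 3, and in siKlf5 it was 104, 244, 395 and 439. In siCtrl most of the climb fell between days 1 and 2, with a log2 change of 1.66 (1.26 to 2.09), and in siKlf5 it was spread over both intervals, with 1.23 (0.74 to 1.73) to day 1 and 0.69 (0.34 to 1.05) to day 2. Trim55 was therefore higher with siKlf5 on day 1, with a log2 ratio of 0.72 (0.23 to 1.22), and a little lower on day 2, at -0.25 (-0.48 to -0.02). On day 3 the libraries stood at a ratio of -0.02 (-0.28 to 0.24).

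Fbxo32, the gene of atrogin-1, lies at chr15:58007434-58046447 on the minus strand and has the longest exons of the 7, with 6925 bases. The Fbxo32 level in siCtrl was 13.7, 74.9, 134 and 143 on days 0 to 3, and in siKlf5 it was 14.5, 87.2, 87.3 and 122. Its course was the second widest, with a log2 change from day 0 to day 3 of 3.38 (2.86 to 3.97), or 10.4-fold, in siCtrl and 3.07 (2.52 to 3.67), or 8.38-fold, in siKlf5. The siKlf5 libraries of days 1 and 2 were level, with a log2 change of 0.00 (-0.32 to 0.33), where siCtrl changed by 0.83 (0.54 to 1.14). The ratio between the siRNAs was 0.08 and 0.22 on days 0 and 1, -0.61 (-0.86 to -0.37) on day 2 and -0.23 (-0.48 to 0.00) on day 3. Transcripts of like length and level had a median of -0.20 on day 2, and over all transcripts with a mean level of 10 or more the day 2 median went from 0.10 below 1000 exonic bases to -0.13 at 4000 to 8000 bases. The day 2 ratio of Fbxo32 thus stood next to a shift of long transcripts in the same direction, whose part in it was not tested.

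**Figure D2:**
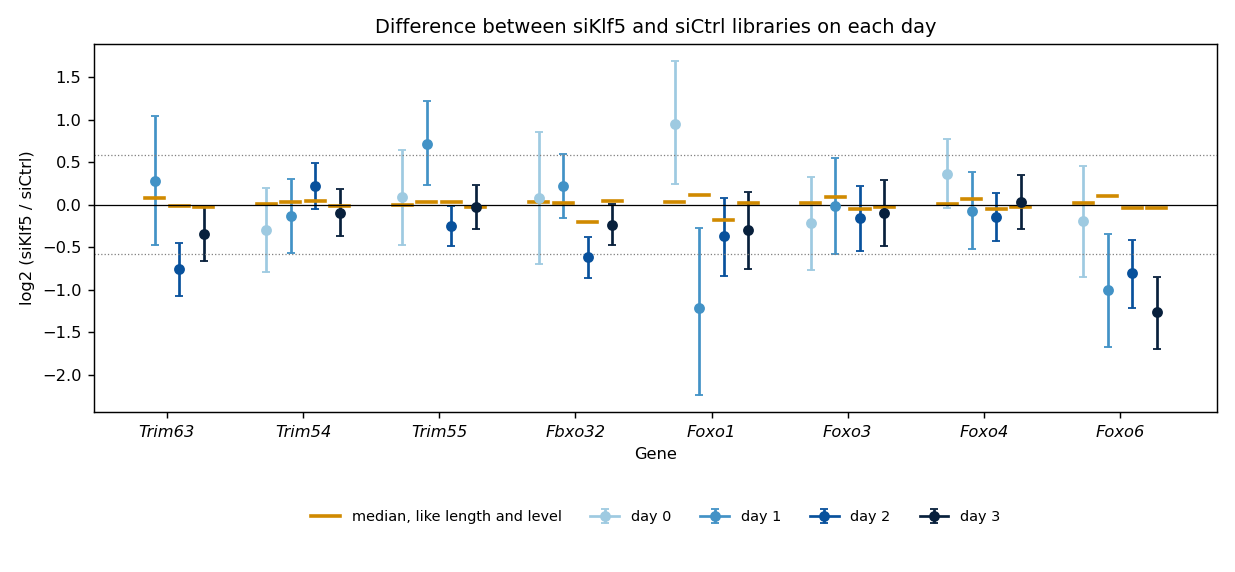
Log2 ratio of siKlf5 to siCtrl (vertical axis) for each gene on days 0 to 3, light to dark blue, with 95% counting intervals and, in yellow, the median of transcripts of like length and level. Dotted lines mark 1.5-fold, and day 0 of Trim63, with its interval from -3.06 to 5.61, is not drawn. Trim63 and Fbxo32 lie past 1.5-fold on day 2, Trim55 on day 1, Foxo1 on days 0 and 1 in opposite directions, and Foxo6 on days 1 to 3.

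The stretches just before the transcript starts of the 4 ligase genes are shown because the genes with the widest courses, Trim63 and Fbxo32, do not hold the same letters there. Each is the 250 bases of mm9 before the start, in the direction of transcription, with capitals marking letters that were searched for on both strands.
Trim63 (chr4:133870785-133871034, plus strand): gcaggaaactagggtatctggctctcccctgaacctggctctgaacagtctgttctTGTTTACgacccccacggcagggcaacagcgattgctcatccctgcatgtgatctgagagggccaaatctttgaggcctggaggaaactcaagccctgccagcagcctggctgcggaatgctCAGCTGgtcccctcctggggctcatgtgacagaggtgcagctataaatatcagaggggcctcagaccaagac
Trim54 (chr5:31418735-31418984, plus strand): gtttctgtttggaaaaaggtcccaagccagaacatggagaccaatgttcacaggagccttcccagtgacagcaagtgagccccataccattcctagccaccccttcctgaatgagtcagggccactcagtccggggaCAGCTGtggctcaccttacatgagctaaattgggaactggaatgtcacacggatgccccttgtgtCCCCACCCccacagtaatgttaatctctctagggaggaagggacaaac
Trim55 (chr3:19544210-19544459, plus strand): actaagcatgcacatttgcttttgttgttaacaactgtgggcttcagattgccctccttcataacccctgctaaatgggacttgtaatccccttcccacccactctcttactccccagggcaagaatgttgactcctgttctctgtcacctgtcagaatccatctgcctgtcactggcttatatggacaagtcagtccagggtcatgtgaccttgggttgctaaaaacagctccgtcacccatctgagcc
Fbxo32 (chr15:58046448-58046697, minus strand): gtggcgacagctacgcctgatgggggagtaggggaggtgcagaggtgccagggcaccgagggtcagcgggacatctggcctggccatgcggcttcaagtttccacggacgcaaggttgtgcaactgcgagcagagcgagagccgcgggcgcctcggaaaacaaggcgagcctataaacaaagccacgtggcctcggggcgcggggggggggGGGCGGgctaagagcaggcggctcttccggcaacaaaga

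The Trim63 window held the FoxO element GTAAACA, read on the minus strand, 194 to 188 bases before the start, and the E-box CAGCTG 72 to 67 bases before it. Of all 23953 windows of the same length, 2.60% held the FoxO element and 12.4% this E-box. The E-box was also in the Trim54 window, together with the CACCC letters CCCCACCC, which 10.0% of windows held. The GC box GGGCGG, in 41.6% of windows, was found once in the Fbxo32 window, 2 times in that of Foxo1 and 4 times in that of Foxo3. The windows of Trim55 and Foxo4 held none of the letters searched, and CCACACCC, in 3.27% of windows, was in none of the 7. Such matches describe letters and are not evidence of binding, and the FoxO and GC letters overlapped none of the other matches.

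Among the FoxO genes, Foxo1 was the lowest in every library. It lies at chr3:52072259-52154031 on the plus strand with 5547 exonic bases. The Foxo1 level in siCtrl was 14.8, 26.4, 42.8 and 53.9 on days 0 to 3, each day above the last. In siKlf5 it was 28.6, 11.4, 33.2 and 43.9, so the day 1 library was the lowest of the 8. The log2 ratio of siKlf5 to siCtrl was 0.95 (0.24 to 1.70) on day 0 and -1.21 (-2.24 to -0.27) on day 1, and the day 1 value rests on 84 reads against 188. On days 2 and 3 it was -0.37 (-0.83 to 0.08) and -0.30 (-0.75 to 0.15). The log2 change from day 0 to day 3 was 1.86 (1.24 to 2.54) in siCtrl and 0.61 (0.07 to 1.18) in siKlf5. The changes differed by -1.25, which was not tested, and rest on day 0 levels that themselves differed.

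Foxo3, the FoxO factor best known for activating Trim63 and Fbxo32 in wasting muscle, lies at chr10:41905592-41996548 on the minus strand with 2883 exonic bases. Its level was 70.5, 87.1, 106 and 125 in siCtrl and 60.7, 86.3, 95.1 and 117 in siKlf5. The log2 change of Foxo3 from day 0 to day 3 was 0.82 (0.38 to 1.27) in siCtrl and 0.94 (0.44 to 1.45) in siKlf5. Both siRNAs showed a steady and shallow climb. The ratio between them was between -0.22 and -0.01 on the 4 days, and each interval included 0.

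Foxo4, an Akt-regulated factor on the X chromosome (chrX:98449867-98456212, plus strand, 3157 exonic bases), was the highest of the 3 FoxO genes in every library. Its level was 93.1, 126, 172 and 165 in siCtrl and 120.1, 119.9, 156 and 169 in siKlf5. The log2 change of Foxo4 from day 0 to day 3 was 0.83 (0.46 to 1.2) in siCtrl and 0.49 (0.13 to 0.85) in siKlf5, the only day 3 change among the 14 that was short of 1.5-fold. With the other scalings it was 0.61, past that mark. Between the siRNAs the ratio was 0.37 (-0.04 to 0.78) on day 0 and between -0.14 and 0.03 after that.

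The remaining FoxO gene of mouse, Foxo6, whose protein stays mostly in the nucleus, had the largest knockdown difference of the family on days 2 and 3. Foxo6 was at 56.2, 109, 150.4 and 208 in siCtrl on days 0 to 3, and at 49.2, 54.7, 85.8 and 86.5 in siKlf5. The siKlf5 level was lower on all 4 days, and on days 1 to 3 its interval lay wholly below a ratio of 0. The log2 ratio was -0.19 (-0.86 to 0.46), -1.0 (-1.68 to -0.35), -0.81 (-1.22 to -0.41) and -1.26 (-1.70 to -0.85). Transcripts of like length and level had medians between -0.04 and 0.10. The change from day 0 to day 3 was 1.88 (1.41 to 2.38) in siCtrl and 0.81 (0.21 to 1.44) in siKlf5.

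Shares within a family do not depend on how libraries were scaled to each other. Of the summed FPKM of the 3 MuRF genes, Trim63 made up 0.81%, 13.7%, 28.4% and 26.4% in siCtrl on days 0 to 3 and 1.59%, 14.3%, 19.3% and 22.7% in siKlf5. On day 2 the counting intervals of this share, 25.8% to 31.1% in siCtrl and 16.2% to 22.8% in siKlf5, did not overlap. On the same day Trim54 made up 30.3% (27.5% to 33.2%) in siCtrl and 40.7% (36.4% to 45.0%) in siKlf5. From day 0 to day 3 the family as a whole went from 267 to 1250 in siCtrl and from 244 to 1145 in siKlf5. On day 2 its sum was 1136 in siCtrl and 987 in siKlf5. Trim54 made up 38.0% of it in siCtrl and 38.9% in siKlf5 on day 3. With Foxo6 counted in, the FoxO sum on day 3 was 551 in siCtrl and 416 in siKlf5, and the share of Foxo6 in it was 37.7% (33.5% to 41.9%) and 20.8% (16.5% to 25.6%).

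**Figure D3:**
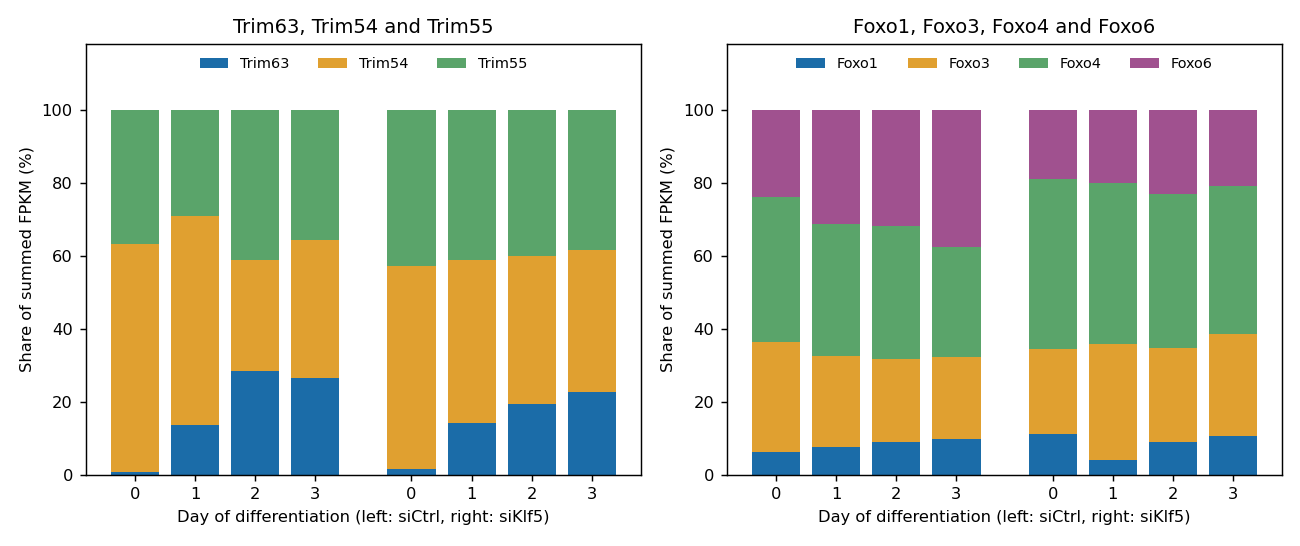
Share of each gene in the summed FPKM of its family (vertical axis, percent) for siCtrl (left 4 bars) and siKlf5 (right 4 bars) on days 0 to 3, 1 library per bar. Trim63 grows from 0.81% to 28.4% of the MuRF sum by day 2 in siCtrl and to 19.3% in siKlf5, and Foxo6 reaches 37.7% of the FoxO sum on day 3 in siCtrl against 20.8% in siKlf5.

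The order of the levels changed over the course with both siRNAs. On day 0 Trim54 was the highest and Trim63 the lowest in both arms, although in siKlf5 Trim54 and Foxo4 were not apart beyond counting error (log2 difference 0.18, -0.29 to 0.64), and neither were Fbxo32 and Trim63. By days 2 and 3 the 3 MuRF genes were the highest 3 in all 4 libraries and Foxo1 was the lowest. On day 3 Trim54 and Trim55 were not apart in either arm, Trim63 followed them at a distance beyond counting error, and Fbxo32 and Foxo3 were not apart. On day 2 Trim63 was above Foxo4 in siCtrl by 0.91 (0.68 to 1.14) and in siKlf5 by 0.29 (-0.07 to 0.64).

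Differences past 1.5-fold were counted among the 7 genes and, as background, among all expressed transcripts. On day 0, 2 of the 7 were higher with siKlf5, Trim63 and Foxo1, where 9.22% of transcripts were. Trim63 passed on 13 reads with siKlf5 against 8 with siCtrl, and its interval included 0. No member was lower on that day, where 11.1% of transcripts were. On day 1 Trim55 was higher and Foxo1 lower, against 16.4% and 11.0% of transcripts. On day 2 none was higher and 2 were lower, Trim63 and Fbxo32, against 7.69% and 13.0% of transcripts, and Fbxo32 lost this place under the other scalings, at -0.57. On day 3 none of the 7 passed in either direction, against 10.7% higher and 12.5% lower. The background takes in low transcripts, from a mean of 1 up, while the members had means of 31.9 to 316. Transcripts of like length and level to a member had day 3 quartiles between -0.23 and 0.25. Their share past 1.5-fold was not counted.

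Taking the 4 days together as pairs of libraries, the siRNA difference was fitted with limma across all 14312 expressed transcripts, with day as block, a fit added after the data were seen. The spread in this fit is how much the difference varies between days, not between replicate cultures. Klf5 was called, with a log2 difference of -1.94 (-2.40 to -1.47) and an adjusted p of 0.0244 from limma, which was 0.0538 with a pseudocount of 0.01 and between 0.296 and 0.693 with 1 day left out. None of the 7 was called at an adjusted p under 0.05, and none had an unadjusted p under 0.05, where 9 transcripts or 0.0629% of all were called and 1374 had an unadjusted p under 0.05. Their differences lay between -0.23 (-1.01 to 0.55, Foxo1) and 0.13 (-0.20 to 0.47, Trim55). Foxo6, which was lower in 4 of 4 days, differed by -0.82 (-1.22 to -0.41), with an unadjusted p of 0.00162 and an adjusted p of 0.23 from limma, and so did not pass. Leaving out any 1 day left 0 transcripts called, Klf5 included.

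Within single days, the median log2 ratio of the 7 was 0.09, -0.01, -0.25 and -0.10 on days 0 to 3, and that of all expressed transcripts lay between -0.03 and 0.03.

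Over the course more of the members passed. In siCtrl, 5 of the 7 were past 1.5-fold above day 0 on day 1, where 15.4% of transcripts were. All 7 were on day 2 and on day 3, against 22.9% and 22.5%. None was lower on days 1 to 3, where 22.8%, 18.1% and 23.5% of transcripts were. In siKlf5, 4 were higher and Foxo1 was lower on day 1, against 18.2% and 19.8% of transcripts. On day 2, 5 were higher, against 21.3%, and on day 3, 6 were, against 21.7%, or 7 under the other scalings. None was lower on those days, where 20.2% and 23.6% of transcripts were. No member lay past 1.5-fold between days 2 and 3 in siCtrl, where 8.71% of transcripts were higher and 12.8% lower, or in siKlf5, where 10.2% and 10.4% were. The arms share no library in these courses. Scaling the libraries by other factors moved all transcripts by 0.09 to 0.12 on the log2 scale between days 0 and 3.

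The other genes of the pathway were taken from lists by role. Of 28 other ubiquitin ligases known from muscle, 10 were past 1.5-fold higher and 0 lower on day 3 than on day 0 in siCtrl, and 9 higher and 2 lower in siKlf5, where 22.5% and 23.5% of expressed transcripts in siCtrl and 21.7% and 23.6% in siKlf5 were. Between the siRNAs on day 3, 3 were higher and 5 lower, beside 10.7% and 12.5% of expressed transcripts, and the median was 0.04. Some of these, among the higher and the lower, were low genes with means between 1.30 and 6.32 and intervals that included 0. Asb2, the specificity subunit of a cullin ligase that targets filamins, was at 18.9 in siCtrl and 36.1 in siKlf5 on day 3, a log2 ratio of 0.93 (0.02 to 1.88). Klhl40, a Kelch protein that steadies thin filament proteins, was at 206 and 127, a ratio of -0.69 (-1.07 to -0.32). Neurl2, a muscle ligase adaptor, was at 183 and 109.5, with a ratio of -0.74 (-1.35 to -0.15). Fbxo31, an F-box protein like Fbxo32, was at 89.1 and 52.8, with a ratio of -0.75 (-1.2 to -0.32). On days 0 to 2 the ratio of Asb2 was 0.28, 1.40 and 1.34, and that of Klhl40 was -0.82, -0.51 and -0.62. For Neurl2 it was 0.12, -0.56 and 0.20, and for Fbxo31 0.13, 0.02 and -0.14.

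Few genes of the common machinery that ligases draw on passed 1.5-fold. Of the 21 genes for the SCF core, ubiquitin-charging enzymes and ubiquitin, 0 passed 1.5-fold in either direction between siKlf5 and siCtrl on any day. Of all expressed transcripts, 7.69% to 16.4% were higher and 11.0% to 13.0% lower on the 4 days. That background takes in low transcripts, from a mean of 1 up, while the 21 had means of 74.2 to 5062. The share past 1.5-fold among transcripts of like level was not counted. The ratios of the 21 lay between -0.30 and 0.50. From day 0 to day 3, 1 was higher and 2 were lower in siCtrl, beside 22.5% and 23.5% of expressed transcripts. Ubb, a gene of ubiquitin repeats so alike that its reads are hard to place, was at 5777 in siCtrl and 5166 in siKlf5 on day 3, a log2 ratio of -0.16 (-0.25 to -0.07). On days 0 to 2 the Ubb ratio was 0.19 (0.09 to 0.29), -0.02 and 0.35 (0.27 to 0.44).

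Of 24 FoxO targets listed other than the ligases, 23 were expressed. On day 3, 1 of them was higher with siKlf5 and 2 were lower, where 10.7% and 12.5% of all expressed transcripts were, and the median was -0.05. Pdk4, a kinase that inhibits pyruvate dehydrogenase, was at 30.9, 11.8, 36.8 and 38.0 in siCtrl and at 29.1, 26.8, 61.5 and 85.2 in siKlf5, with a day 3 ratio of 1.16 (0.63 to 1.72). Pik3ip1, an inhibitor of PI3 kinase, was at 4.55, 12.6, 29.0 and 76.6 in siCtrl and at 5.00, 17.8, 33.6 and 34.0 in siKlf5. Its day 3 ratio was -1.17 (-1.94 to -0.45), and on the earlier days the ratio lay between 0.14 and 0.50. Bcl6, a transcriptional repressor, was at 224 and 148 on day 3, with a ratio of -0.59 (-0.90 to -0.29), and Ulk1, the kinase that starts autophagy, at 207 and 139 with -0.57 (-0.82 to -0.32). On days 0 to 2 the ratio of Ulk1 was 0.15, 0.52 (0.15 to 0.90) and -0.17, and that of Bcl6 was -0.42, 0.36 and -0.64. Over the course in siCtrl 10 of the 23 were higher and 1 lower on day 3, beside 22.5% and 23.5% of expressed transcripts, with a median of 0.52. In siKlf5 12 were higher and 2 lower, beside 21.7% and 23.6%.

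Of the 24 genes that act on FoxO factors from upstream, 1 was higher and 1 lower with siKlf5 on day 3, beside 10.7% and 12.5% of expressed transcripts, and the median was 0.08. Irs1, the docking protein of the insulin and IGF receptors, was at 91.4 in siCtrl and 143 in siKlf5, a ratio of 0.64 (0.42 to 0.87). Sgk1, a kinase that phosphorylates FoxO factors at sites shared with Akt, was at 119 and 66.3, a ratio of -0.84 (-1.36 to -0.33). The second docking protein, Irs2, was at 20.2 and 27.6, and Prkaa2, a catalytic subunit of AMP kinase, at 16.7 and 23.0, and both intervals included 0. On days 0 to 2 the ratio of Irs1 was 0.05, -0.08 and -0.07. That of Sgk1 was -0.45 (-0.84 to -0.06), 0.39 (-0.28 to 1.08) and -0.08.

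The transcripts of proteins that these ligases are known to bind or ubiquitylate were listed as substrates. Of the 16 listed 15 were expressed, and 11 were past 1.5-fold higher on day 3 than day 0 in siCtrl and 12 in siKlf5, beside 22.5% and 21.7% of expressed transcripts, with medians of 4.82 and 4.22. Between the siRNAs on day 3, 3 were higher and 2 lower, beside 10.7% and 12.5%. Ttn, titin, to whose M-band end MuRF1 binds, was at 51.9 in siCtrl and 98.2 in siKlf5, a ratio of 0.92 (0.83 to 1.02). On days 0 to 2 the Ttn ratio was 0.16 (-0.13 to 0.45), 0.62 (0.47 to 0.77) and -0.32 (-0.41 to -0.24). Its length puts it among the long transcripts, whose median from 8000 exonic bases up was -0.38 on day 2 and 0.19 on day 3. Mybpc1, slow myosin-binding protein C, was at 65.3 and 165, with a ratio of 1.34 (0.97 to 1.72). The myosin heavy chains Myh7 (slow) and Myh4 (fast) went in opposite directions. Myh7 was at 311 and 55.5, with a ratio of -2.48 (-2.80 to -2.18), and Myh4 at 228 and 598, with 1.39 (1.23 to 1.55). On days 0 to 2 the ratio of Myh7 was -1.42 (-3.23 to 0.06), -1.99 and -2.76, and that of Myh4 was 1.67, 1.22 and 1.70. Myosin heavy chain genes resemble each other to differing degrees, and how far misplaced reads enter these values was not tested.

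**Figure D4:**
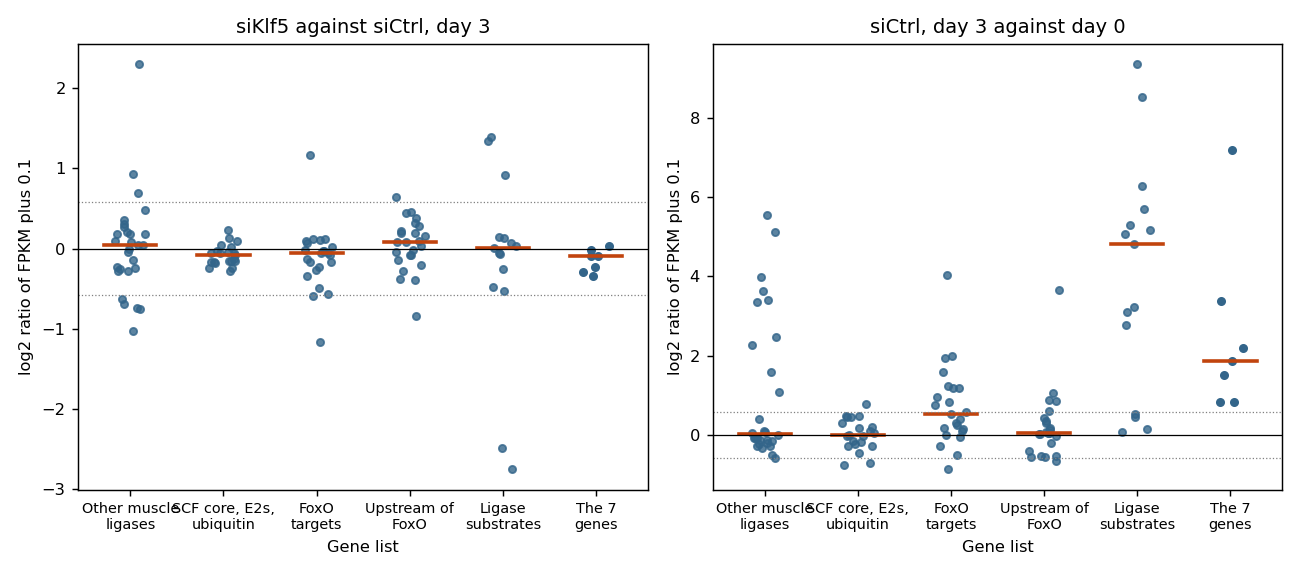
Log2 ratios (vertical axes) of the expressed genes of each list and of the 7 genes, between siKlf5 and siCtrl on day 3 (left) and between day 3 and day 0 in siCtrl (right). Each point is a gene, red bars are medians and dotted lines mark 1.5-fold. On the left the medians lie between -0.10 and 0.08, and on the right that of the substrates is 4.82 and that of the 7 genes 1.86.

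The genes whose profile was most like each member over the 8 libraries were sought in 11338 transcripts with at least 300 exonic bases and a mean level of 10 or more, by the root mean square difference of log2 levels centred on each gene's own mean. Those nearest to Trim63 were Pgm5 (0.31), Itgb1bp2 (0.43) and Actn2 (0.46), of which Actn2 is 1 of the 8 myotube markers. Fbxo32 was nearest to Dcn (0.13), Ryr1 (0.23) and Dclk1 (0.24). Trim54 lay next to Sdc2 (0.09), Ccpg1 (0.10) and Copz2 (0.12), and Trim55 next to Syne1 (0.10), Gpr146 (0.11) and Slc4a3 (0.13). Foxo1 lay next to Mlycd (0.19), Taf7 (0.27) and Hist1h2be (0.29). For Foxo3 the nearest were Vamp2 (0.08), Klhl30 (0.08) and Ulk3 (0.08), and for Foxo4 they were Rabgap1 (0.06), 4833439L19Rik (0.09) and Scamp1 (0.09). No member was among the 3 nearest of another. The closest pair of members was Foxo3 and Foxo4, 0.18 apart, and the widest was Trim63 and Foxo4, 2.41 apart. Trim63 and Fbxo32 were 1.41 apart, which put Fbxo32 at rank 190 among the transcripts most like Trim63 and Trim63 at rank 6810 among those most like Fbxo32. All distances of Trim63 take in its day 0 levels, 2.17 (0.12 to 9.99) in siCtrl on 8 reads and 3.88 (0.53 to 13.4) in siKlf5 on 13. How far counting error there moves these distances and ranks was not tested.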

How the data were processed

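Poly(A) RNA of C2C12 cells was measured in 8 libraries, 1 for each siRNA and day. The 6 chromatin immunoprecipitation and input samples were left aside (not analysed here). For alignment of the read pairs to mm9 the authors used STAR, and HOMER then gave counts over exons of RefSeq transcripts, strand ignored, capped at 3 reads per position, with 1 transcript per gene. The tool versions for the RNA data are not given in the sources used here. The deposited FPKM values were scaled to a matrix total of 10000000 per library. Deposited log2 columns hold a shifted log2 of FPKM and served 1 alternative, and 1 log2 column without a day in its name was not used. The study names DESeq2 for its counts, which were not used here.

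Reads were recovered from FPKM and exon length, and in each library 100% of the 5373 to 6914 low values examined were whole to within 0.1. Transcripts with 6 reads outnumbered those with 5 by 2.83 to 10.0 times, so 95% exact (Clopper-Pearson) intervals used reads divided by 6. Ratios used a pseudocount of 0.1, and the fold call was 1.5-fold without a test. The members and gene lists were chosen with earlier results of these data known. From each list at most 4 genes with a mean of at least 10 and the largest day 3 ratios are named, or the 2 highest where fewer than 2 passed 1.5-fold, and for each member the 3 nearest profiles. 1 gene that this rule names is not reported here. The calculations were tested on simulated data. The siRNA difference over the 4 days was fitted with limma 3.58.1 (R 4.3.3) on log2 of FPKM plus 0.1, with day as block and Benjamini-Hochberg adjustment, an analysis added after seeing the data. Alternatives were other pseudocounts, scalings, filters, a 2-fold cutoff, the log2 columns and single-read intervals. Python 3.11.15, numpy 2.4.6, pandas 2.3.3 and scipy 1.17.1 were used.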

Additional observations from a re-analysis of the deposited data

Results flagged for a closer look

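Trim55 and Foxo1 were singled out because their counting intervals lay on opposite sides of 0 on 2 days. The log2 ratio of siKlf5 to siCtrl for Trim55 was 0.72 on day 1 and -0.25 on day 2. The day 2 interval of Trim55 ended at -0.02, and the other scalings raise the ratios of that day by 0.05. Under them the interval reaches past 0. For Foxo1 it was 0.95 on day 0 and -1.21 on day 1. Each value compares 1 library with 1 other, and the difference between the days was not tested.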

How the results depend on the processing

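All 248 ratios of single genes recomputed under an alternative stayed within their counting interval, all 258 recomputed medians stayed within that of their middle genes, and 520 of 568 recomputed counts stayed within 1.5 times. For the gene ratios under other scalings this outcome was nearly fixed beforehand and says little about the processing. Those scalings shift log2 ratios by at most 0.12, while the interval of Trim55 on day 2 runs from -0.48 to -0.02 around -0.25. Of 72 recomputed family shares 28 moved out of their interval, 12 of them when reads were not divided by length, such as Trim54 in siCtrl on day 2 at 26.7%, and 16 when Foxo6 joined the family. By reads, Foxo6 on day 3 was 30.8% of the FoxO sum in siCtrl and 16.4% in siKlf5. Of the counts of the 7 genes, the 2 higher on day 0 became 0 with a 2-fold cutoff and 1 with the deposited log2 columns. The 1 higher on day 1 became 0 with a 2-fold cutoff. The 2 lower on day 2 became 1 with median-ratio scaling, 1 with upper-quartile scaling, 0 with a 2-fold cutoff and 1 after centring on transcripts of like length and level, which was added after seeing the data. Genes whose interval left out 0 went from 1 to 3 on day 0, from 3 to 7 on day 2 and from 1 to 3 on day 3 when single reads were treated as independent. In the fit with day as block, added after seeing the data, 0 of the 7 were called under every alternative. The 9 transcripts called became 0 when any 1 day was left out. The log2 difference of Trim63, -0.0029, changed sign to 0.0035 with a pseudocount of 0.01 and 0.0090 with upper-quartile scaling. With 1 day left out it lay between -0.27 and 0.25, and those of Trim55 between -0.061 and 0.26, Fbxo32 between -0.26 and 0.022, Foxo1 between -0.62 and 0.096 and Foxo4 between -0.059 and 0.11, so that each of the 5 changed sign and none was called. The adjusted p of Foxo6 lay between 0.18 and 0.69 over the alternatives. The day 1 libraries were the shallowest, at 7850497 and 8119452 reads, and Trim63 on day 0 rests on 8 and 13 reads.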
